A study of Homo sapiens with 8 samples.

Results

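The miR-106b-25 cluster is a set of 3 microRNA hairpins in an intron of MCM7, a gene for a subunit of the replicative DNA helicase. Its guide strands, hsa-miR-106b-5p, hsa-miR-93-5p and hsa-miR-25-3p, were taken by name from the count table and make up 3 of its 2962 small RNA features and 3 of its 342 microRNA features. The libraries came from HEK293, a human embryonic kidney line, which had taken up a synthetic RNA at 50 nM with a lipid reagent 48 h before collection. In 4 libraries it copied a tRNA-derived small RNA (tDR), the 3′ fragment of tRNA-Asp-GTC, and in 4 it was a scramble control mimic, so all cells were transfected and no untreated cells are compared. The OTTR-seq protocol used for total RNA lets the reverse transcriptase join both adapters in a single copying step.

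A microRNA guide strand is loaded into an Argonaute protein and pairs with messenger RNAs mainly through its seed, the bases just after its first base, while the opposite strand of the hairpin duplex is mostly degraded. The miR-106b-25 cluster is a paralog of the miR-17-92 cluster and of the miR-106a-363 cluster. Transcription of its host gene MCM7 is driven by E2F factors in dividing cells, and messages for cell cycle inhibitors and pro-apoptotic proteins, such as p21 and BIM, are known targets of these microRNAs.

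The mature sequences show which of these microRNAs share a seed, and are printed from RefSeq (GRCh38.p14), 5′ to 3′, with bases 2 to 8 in capitals. All 3 members matched that table. The members come first, then the tested relatives of hsa-miR-106b-5p and hsa-miR-93-5p from other loci, then those of hsa-miR-25-3p.
hsa-miR-106b-5p: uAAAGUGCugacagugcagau
hsa-miR-93-5p: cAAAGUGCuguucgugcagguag
hsa-miR-25-3p: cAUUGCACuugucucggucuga
hsa-miR-17-5p: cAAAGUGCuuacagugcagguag
hsa-miR-20a-5p: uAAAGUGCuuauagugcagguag
hsa-miR-106a-5p: aAAAGUGCuuacagugcagguag
hsa-miR-92a-3p: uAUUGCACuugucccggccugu
hsa-miR-92b-3p: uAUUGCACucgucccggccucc
hsa-miR-32-5p: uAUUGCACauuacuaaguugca
The cluster thus holds both seeds: hsa-miR-106b-5p and hsa-miR-93-5p carry that of miR-17, and hsa-miR-25-3p that of miR-92a. Compared without gaps from the 5′ end, hsa-miR-106b-5p and hsa-miR-93-5p differed at 5 of 21 positions (U1C, A11U, C12U, A13C and A20G, with the base of hsa-miR-106b-5p first and position 1 at the 5′ end). From hsa-miR-17-5p, hsa-miR-106b-5p differed at 3 of 21 positions and hsa-miR-93-5p at 4 of 23. Between hsa-miR-25-3p and hsa-miR-92a-3p 4 of 22 positions differed (C1U, U14C, U18C and A22U). How the counting divided reads that fit more than 1 of these sequences is not stated in the labels, so counts of close relatives are uncertain to that extent.

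In GENCODE release 29 (GRCh38) the hairpins lie on the minus strand of chromosome 7, MIR106B at 100093993 to 100094074, MIR93 at 100093768 to 100093847 and MIR25 at 100093560 to 100093643. In the direction of transcription MIR106B comes first, MIR93 follows after 145 bases and MIR25 after a further 124, all within 515 bases. All 8 MCM7 transcripts that span the hairpins have them in an intron. In transcript MCM7-201 it is the intron between exons 13 and 14, at 100093402 to 100094172.

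Counts over all features summed to between 6910186 and 8007025 in tDR libraries and between 4016295 and 10246336 in scramble libraries. At these depths a count of 0 allows up to 3 counts, between 2.93e-05% and 7.47e-05% of a library, and the members had 54 to 1895 counts each, so none was near that limit. MicroRNA features took 0.682, 0.536, 0.355 and 0.414% of all counts in tDR libraries 1 to 4, against 0.476, 0.649, 0.804 and 0.948% in scramble libraries 1 to 4. Of the microRNAs known in HEK293, all 6 listed were counted, with a summed level of 518 to 946 CPM (counts scaled to library size) in tDR libraries and 938 to 1366 CPM in scramble libraries. Most of that sum was hsa-miR-92a-3p, at 311 to 577 CPM in tDR libraries and 670.0 to 962 CPM in scramble libraries, whereas hsa-miR-10a-5p overlapped, at 24.4 to 47.8 CPM in tDR libraries and 24.5 to 43.9 CPM in scramble libraries. Summed markers of blood (1 of 3 analysed), immune (1 of 5), muscle (2 of 3) and endothelial cells (2 of 2) stayed between 0 and 9.95 CPM in tDR libraries and between 0 and 6.51 CPM in scramble libraries. Neural markers (3 of 3) summed to 36.7 to 64.4 CPM in tDR libraries and 46.0 to 69.2 CPM in scramble libraries, most of it hsa-miR-9-5p. hsa-miR-124-3p, which defines neurons, was between 0 and 0.838 CPM in tDR libraries and between 0 and 0.569 CPM in scramble libraries. The remaining neural marker, hsa-miR-128-3p, did not overlap, at 4.47 to 7.48 CPM in tDR libraries and 8.91 to 15.3 CPM in scramble libraries. Of tested microRNAs 10.2% were likewise lower in tDR libraries without overlap. The liver marker hsa-miR-122-5p had no entry under that name among the features used here, and the part of these markers in the results was not tested. Whether replicates were grown as separate cultures is not in the labels, so the p-values below reflect only how these libraries vary, which may be technical.

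hsa-miR-25-3p was the abundant member in every library. Levels are CPM scaled by trimmed means of M values (TMM). For hsa-miR-25-3p they were 138, 120.2, 89.9 and 101 CPM in tDR libraries 1 to 4 and 113, 133, 143 and 165 CPM in scramble libraries 1 to 4. hsa-miR-106b-5p, the first microRNA of the cluster, had 24.0, 22.6, 11.55 and 7.54 CPM in tDR libraries 1 to 4 and 16.5, 22.8, 21.1 and 31.4 CPM in scramble libraries 1 to 4. For hsa-miR-93-5p, the middle one, the levels were 20.9, 18.1, 11.0 and 11.0 CPM in tDR libraries 1 to 4 and 18.9, 14.7, 20.2 and 24.4 CPM in scramble libraries 1 to 4. In all 3 members tDR libraries 3 and 4 were the lowest of the 8 libraries, tDR libraries 1 and 2 lay within the range of the scramble libraries, and the highest value was that of scramble library 4. The groups overlapped for each member.

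**Figure D1:**
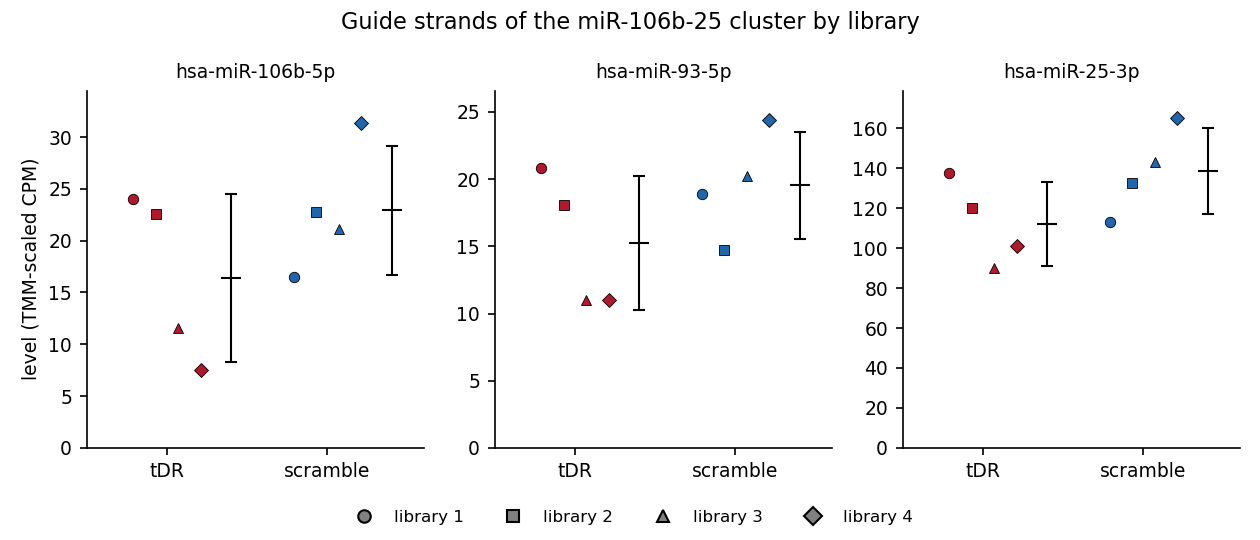
Level of each guide strand (y axis, TMM-scaled CPM) in the 4 tDR and the 4 scramble libraries; marker shapes give the library number, and the bar beside each group is the mean with its SD. tDR libraries 3 and 4 sit below all scramble libraries for each member, for example at 89.9 and 101 CPM for hsa-miR-25-3p, while tDR libraries 1 and 2 lie among the scramble libraries.

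None of the 3 members passed the test of tDR against scramble libraries. hsa-miR-106b-5p averaged 16.4 ± 8.13 CPM in tDR libraries and 22.9 ± 6.20 CPM in scramble libraries (SD, n = 4 each), a log2 fold change of -0.49 with a 95% interval of -1.09 to 0.11 (SE 0.29, adjusted p = 0.337 by edgeR's quasi-likelihood test, Benjamini-Hochberg). hsa-miR-93-5p averaged 15.2 ± 5.01 and 19.6 ± 3.99 CPM in tDR and scramble libraries, a log2 fold change of -0.36 with a 95% interval of -0.84 to 0.12 (SE 0.23, adjusted p = 0.389 by edgeR). For hsa-miR-25-3p the means were 112 ± 21.1 CPM in tDR libraries and 139 ± 21.6 CPM in scramble libraries, a log2 fold change of -0.30 with a 95% interval of -0.65 to 0.040 (SE 0.16, adjusted p = 0.292 by edgeR). In bulk RNA, fewer cells with a microRNA and less of it per cell cannot be told apart.

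Over all 1761 tested features edgeR called 6.7%, 5.34% higher and 1.36% lower in tDR libraries, and of the 196 tested microRNAs it called 4.59%, all lower. So 0 of 3 members called stands beside a background at which few features are called. At an unadjusted p below 0.05 edgeR counted 0 of 3 members, against 21.5% of all tested features and 30.1% of tested microRNAs. That count moved with the setting. It was 3 of 3 without tDR library 1, and 2 of 3 without scramble library 1 or when scaled by total counts. With the DESeq2 Wald test and limma-voom it was 0 of 3. The share of all features at that p was not counted in those fits. At an adjusted p below 0.05 the DESeq2 Wald test and limma-voom also called 0 of 3, with 11.2% and 6.81% of tested features called. The intervals are wide: they include no difference, and for hsa-miR-106b-5p a log2 fold change down to -1.09.

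Most microRNAs were below 0 in this comparison, and the members lay close to the microRNA median. The median log2 fold change was -0.36 over the members, -0.33 over the 196 tested microRNAs and 0.020 over all tested features, and 159 of the 196 microRNAs were below 0. Counted from the lowest log2 fold change among these microRNAs, hsa-miR-106b-5p ranked 65, hsa-miR-93-5p 90 and hsa-miR-25-3p 104. With TMM factors taken from microRNAs alone, which centres them near 0 by construction (the median over all features becomes 0.36), the members' log2 fold changes were -0.20, -0.061 and 0.036, so the sign of hsa-miR-25-3p depended on the scaling. As a share of microRNA counts, the 3 members together took 2.84, 2.54, 2.84 and 2.92% in tDR libraries 1 to 4 and 2.98, 2.71, 2.55 and 2.61% in scramble libraries 1 to 4. The means, 2.78 ± 0.169% in tDR libraries and 2.71 ± 0.193% in scramble libraries, differed by less than the SD of either group. As a share of all counts the sum was 0.0138 ± 0.00400% in tDR libraries and 0.0192 ± 0.00447% in scramble libraries.

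tDR libraries 3 and 4, the lowest of the 8 for each member, lay furthest below the scramble libraries. Without both, which also had the lowest microRNA shares (an alternative chosen after seeing the data), the log2 fold changes of hsa-miR-106b-5p, hsa-miR-93-5p and hsa-miR-25-3p were 0.012, -0.0043 and -0.10. Leaving out the lowest libraries of a group raises its mean in any case, so these values are a description and no test. With 1 library left out at a time the log2 fold changes stayed below 0, and edgeR called 0 of 3 each time. Their size moved: hsa-miR-106b-5p was at -0.25 without tDR library 4 and -0.77 without tDR library 1, and hsa-miR-93-5p at -0.23 without tDR library 3 or without tDR library 4 and -0.57 without tDR library 1. For hsa-miR-25-3p the range was -0.42 to -0.21. Leaving out scramble library 4 also made them smaller, at -0.33 for hsa-miR-106b-5p, -0.25 for hsa-miR-93-5p and -0.23 for hsa-miR-25-3p. The lowest adjusted p in those 8 fits was 0.0949 for hsa-miR-106b-5p, 0.121 for hsa-miR-93-5p and 0.110 for hsa-miR-25-3p, each without tDR library 1.

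Within the cluster hsa-miR-25-3p held more than 74% of the summed guide counts in each library. Its counts were 5.32 to 13.4 times those of hsa-miR-106b-5p in tDR libraries and 5.26 to 6.85 times in scramble libraries, and 6.60 to 9.18 times those of hsa-miR-93-5p in tDR libraries and 5.98 to 9.03 times in scramble libraries. hsa-miR-106b-5p exceeded hsa-miR-93-5p in 3 of 4 tDR libraries and in 3 of 4 scramble libraries, with a ratio of 0.684 to 1.25 in tDR libraries and 0.872 to 1.55 in scramble libraries, so these neighbours in the order were not separated beyond their spread. The mature strands are 21 to 23 bases long, so these counts were compared without a length correction.

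In tDR libraries 1 to 4 hsa-miR-106b-5p held 13.1% of the cluster (95% Wilson interval 11.4 to 15.1%), 14.1% (12.1 to 16.3%), 10.3% (8.36 to 12.6%) and 6.29% (4.86 to 8.12%). The same share was, for scramble libraries 1 to 4, 11.1% (9.44 to 13.0%), 13.4% (11.9 to 15.0%), 11.4% (9.44 to 13.8%) and 14.2% (12.9 to 15.6%). These intervals cover counting error only. tDR library 4 had the lowest share of hsa-miR-106b-5p of the 8 libraries, and its interval did not reach those of the scramble libraries, whereas tDR libraries 1 and 2 lay among them. That library also had the highest share of hsa-miR-25-3p, 84.5% (81.9 to 86.8%), against 74.7 to 80.0% in the other 3 tDR libraries and 74.8 to 78.0% in scramble libraries.

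Group means of the composition did not differ beyond the spread between libraries. hsa-miR-106b-5p held 10.9 ± 3.49% in tDR libraries and 12.5 ± 1.50% in scramble libraries (SD, n = 4 each, two-sided exact permutation p = 0.429, adjusted p = 0.786 over 11 ratio and percent comparisons). hsa-miR-93-5p held 10.4 ± 1.09% in tDR libraries and 10.8 ± 1.68% in scramble libraries (exact permutation p = 0.714, adjusted p = 0.786), and hsa-miR-25-3p 78.6 ± 4.54% and 76.6 ± 1.48% in tDR and scramble libraries (exact permutation p = 0.514, adjusted p = 0.786). The log2 ratios between pairs of members did not pass either. Their differences, tDR minus scramble, were -0.20 for hsa-miR-106b-5p to hsa-miR-93-5p, -0.29 for hsa-miR-106b-5p to hsa-miR-25-3p and -0.084 for hsa-miR-93-5p to hsa-miR-25-3p (exact permutation p = 0.486, 0.486 and 0.714). Without tDR library 4 the share difference, tDR minus scramble, was -0.041 percentage points for hsa-miR-106b-5p, against -1.59 with it, and 0.067 points for hsa-miR-25-3p, against 2.02 with it. The log2 ratio differences without that library were -0.017, -0.0094 and 0.0073 in the order given above. The first of these was also smaller without scramble library 2, at -0.064, and the last was 0.00047 without scramble library 1. With 4 against 4 libraries the smallest p is 0.0286. The composition varied between libraries of a group by more than counting error, with a chi-square per degree of freedom of 6.92 over the 4 tDR libraries and 3.57 over the 4 scramble libraries.

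**Figure D2:**
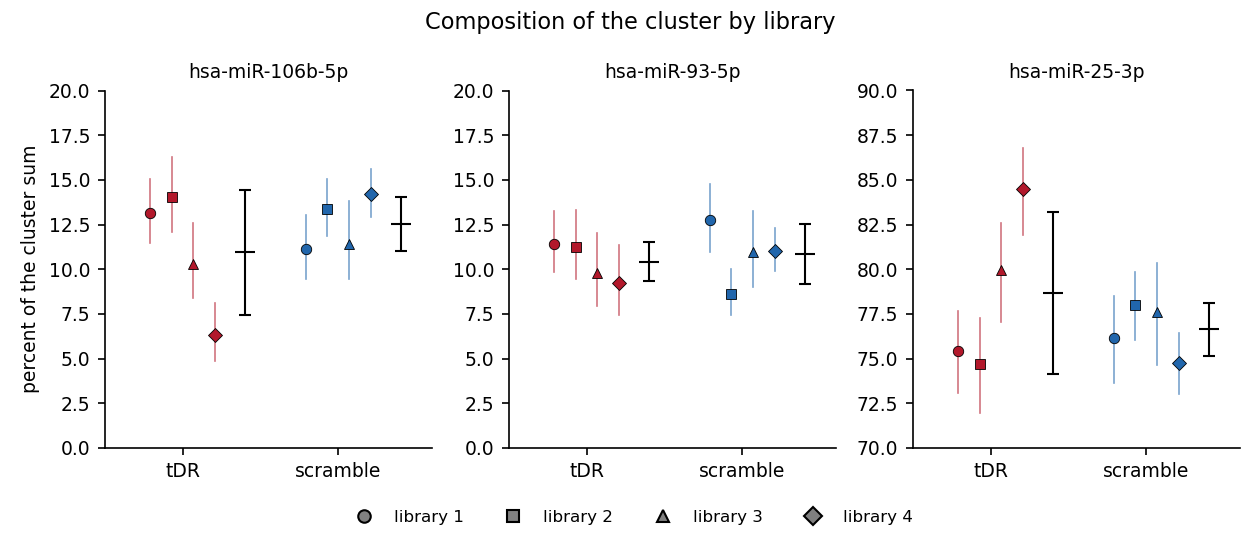
Percent of the summed guide counts of the cluster (y axis; the hsa-miR-25-3p panel starts at 70%) held by each member in tDR and scramble libraries. Thin lines are 95% Wilson intervals per library and the bar beside each group is the mean with its SD; tDR library 4 stands lowest for hsa-miR-106b-5p (6.29%) and highest for hsa-miR-25-3p (84.5%).

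The opposite arms of MIR106B and MIR93 were counted at lower levels than the guides in all 8 libraries. hsa-miR-106b-3p had 44, 51, 37 and 31 counts in tDR libraries 1 to 4 and 54, 68, 23 and 97 counts in scramble libraries 1 to 4. The guide was 4.00, 2.84, 2.24 and 1.74 times this arm in tDR libraries 1 to 4 and 2.41, 3.53, 4.09 and 3.71 times in scramble libraries 1 to 4, a mean log2 ratio of 1.36 ± 0.51 in tDR libraries and 1.74 ± 0.33 in scramble libraries (exact permutation p = 0.257, adjusted p = 0.786). For hsa-miR-93-3p the counts were 34, 18, 28 and 17 in tDR libraries 1 to 4 and 29, 41, 19 and 50 in scramble libraries 1 to 4. hsa-miR-93-5p was 2.82 to 6.44 times this arm in tDR libraries and 3.78 to 5.60 times in scramble libraries (exact permutation p = 0.686 for the log2 ratio, adjusted p = 0.786). The arms' own log2 fold changes were -0.23 for hsa-miR-106b-3p (SE 0.25, edgeR adjusted p = 0.687) and -0.23 for hsa-miR-93-3p (SE 0.29, edgeR adjusted p = 0.734). hsa-miR-25-5p had no entry under that name among the features used here, so no arm ratio was computed for MIR25.

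Summed by seed, the relatives from other clusters had more counts than the members. That came from hsa-miR-17-5p, hsa-miR-20a-5p and hsa-miR-92a-3p, while each other relative had fewer counts than any member in every library. Of 7 seed relatives in the counts 6 were tested, with a median log2 fold change of -0.37. edgeR called 1 of them lower and 0 higher, hsa-miR-92a-3p, the seed relative of hsa-miR-25-3p made from hairpins on chromosomes 13 and X. hsa-miR-92a-3p had 577, 562, 311 and 352 CPM in tDR libraries 1 to 4 and 670.0, 691, 783 and 962 CPM in scramble libraries 1 to 4. Every tDR library was below every scramble library, as for 5.51% of all tested features and 10.2% of tested microRNAs in that direction. hsa-miR-92a-3p fell by 0.79 on the log2 scale (SE 0.20, adjusted p = 0.0229 by edgeR). It no longer passed without scramble library 4 (log2 fold change -0.69, edgeR adjusted p = 0.0836) or without tDR library 4 (-0.68, 0.0812). Nor did it pass with TMM factors from microRNAs alone (-0.48, 0.199) or without tDR libraries 3 and 4 together (-0.45, 0.143). Those were its lowest libraries, so that last setting makes the difference smaller by its choice. Of 18 alternatives hsa-miR-92a-3p stayed called in 13, among them the DESeq2 Wald test (adjusted p = 0.00161) and limma-voom (adjusted p = 0.0170).

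hsa-miR-25-3p held a larger share of its seed family in each tDR library than in any scramble library. In tDR libraries 1 to 4 the share was 19.0% (95% Wilson interval 18.0 to 20.1%), 17.3% (16.3 to 18.5%), 22.1% (20.7 to 23.7%) and 22.0% (20.7 to 23.5%). The same share was, for scramble libraries 1 to 4, 14.3% (13.4 to 15.2%), 15.9% (15.2 to 16.7%), 15.2% (14.2 to 16.3%) and 14.5% (13.9 to 15.1%). hsa-miR-92a-3p made up over 98% of the relatives in all 8 libraries, and its counts were 3.95 ± 0.593 times those of hsa-miR-25-3p in tDR libraries and 5.61 ± 0.330 times in scramble libraries (SD, n = 4 each). The log2 ratio of hsa-miR-25-3p to the summed relatives averaged -1.99 ± 0.21 in tDR libraries and -2.51 ± 0.084 in scramble libraries, a difference of 0.51. It was higher in 4 of 4 tDR libraries than in any scramble library, which gave the smallest p this design allows (two-sided exact permutation p = 0.0286), with an adjusted p of 0.314 over the 11 comparisons. A lone comparison at that smallest p cannot get a lower adjusted value here, so the adjusted test could not pass and says nothing either way. The difference was 0.34 without tDR libraries 3 and 4, which had the highest ratios, so it had to be smaller there. A ratio within a library does not depend on the scaling between libraries. As the relatives were nearly all hsa-miR-92a-3p, called lower in these same libraries, this ratio is not a result separate from that call. How often other features separate the groups by their ratio to hsa-miR-92a-3p was not tested.

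**Figure D3:**
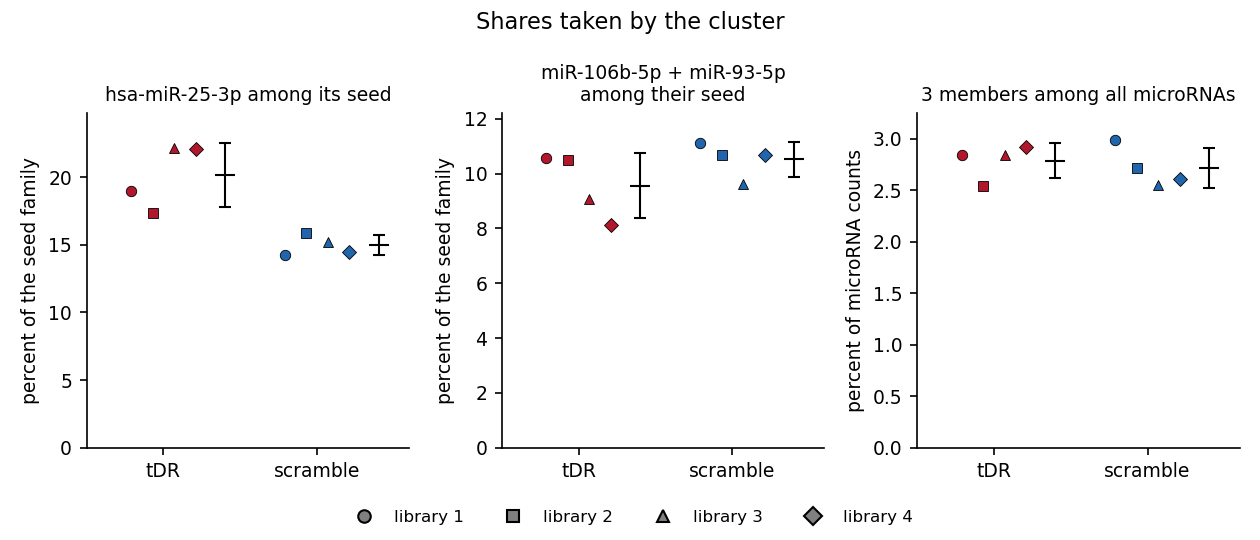
Left, percent of the counts of the miR-25 seed family held by hsa-miR-25-3p; middle, percent of the miR-17 seed family held by hsa-miR-106b-5p and hsa-miR-93-5p together; right, percent of all microRNA counts held by the 3 members (y axes), in tDR and scramble libraries, with means and SD. In the left panel tDR libraries lie at 17.3 to 22.1% and scramble libraries at 14.3 to 15.9%, while the groups overlap in the other panels.

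In the miR-17 seed family, hsa-miR-17-5p and hsa-miR-20a-5p, guides of the miR-17-92 cluster, made up 97.8 to 98.6% of the relatives in tDR libraries and 98.1 to 98.3% in scramble libraries. hsa-miR-106b-5p and hsa-miR-93-5p together held 9.56 ± 1.18% of that family in tDR libraries and 10.5 ± 0.630% in scramble libraries. The log2 ratio of hsa-miR-106b-5p to its relatives differed by -0.26 between tDR and scramble libraries (exact permutation p = 0.314, adjusted p = 0.786). That of hsa-miR-93-5p differed by -0.053 (exact permutation p = 0.8, adjusted p = 0.8). hsa-miR-17-5p stood at 166 ± 52.0 CPM in tDR libraries and 207 ± 41.2 CPM in scramble libraries, a log2 difference of -0.32 (SE 0.20, adjusted p = 0.377 by edgeR). hsa-miR-20a-5p gave -0.32 (SE 0.20, adjusted p = 0.392) and hsa-miR-106a-5p, from the X chromosome cluster, -0.41 (SE 0.25, adjusted p = 0.360). hsa-miR-20b-5p, with 0 to 6 counts a library, was not tested.

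The remaining relatives and paralogs had log2 fold changes from -0.92 to -0.13. hsa-miR-92b-3p was at 4.32 ± 2.10 CPM in tDR libraries and 8.27 ± 1.84 CPM in scramble libraries without overlap, and its log2 fold change, -0.92 with an SE of 0.31, missed the threshold (adjusted p = 0.0784 by edgeR). That of hsa-miR-32-5p was -0.13 (SE 0.29, adjusted p = 0.864). Of the 6 guides of the miR-17-92 cluster 1 was called, again hsa-miR-92a-3p, and their median log2 fold change was -0.37. hsa-miR-18a-5p, at -0.60 (SE 0.19, edgeR adjusted p = 0.0598), lay near the threshold. hsa-miR-19a-3p and hsa-miR-19b-3p, which carry another seed, gave -0.43 and -0.32 (edgeR adjusted p = 0.299 and 0.448), and hsa-miR-18b-5p -0.85 (edgeR adjusted p = 0.118). The summed miR-17-92 guides were 17.9 ± 1.97 times the summed members in tDR libraries and 19.4 ± 2.08 times in scramble libraries.

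**Figure D4:**
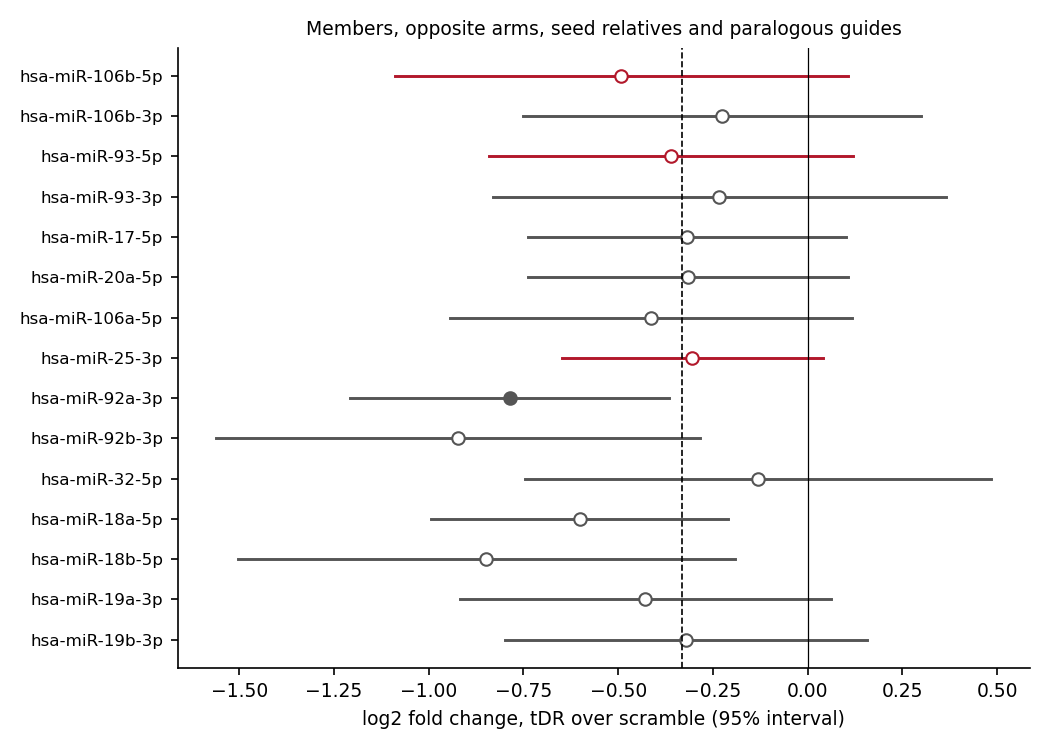
Log2 fold change of tDR over scramble libraries (x axis) with its 95% interval from edgeR for the members (red), their opposite arms, their seed relatives and the other guides of the paralogous clusters (grey). Filled circles passed an adjusted p of 0.05, here hsa-miR-92a-3p at -0.79; the dashed line is the median of tested microRNAs, -0.33.

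To find features with a like pattern, the SD over the 8 libraries of the log2 ratio to each member was ranked over 913 tested features with a mean count of at least 100. For hsa-miR-25-3p the steadiest ratios were those of hsa-miR-29a-3p (SD 0.084), the snoRNA SNORD13 (0.11) and the variant U1 gene RNVU1-17 (0.12), where the median feature had 0.36. For hsa-miR-93-5p they were hsa-miR-17-5p (0.12), Y_RNA.419 (0.15) and hsa-miR-196a-5p (0.16), against a median of 0.46. For hsa-miR-106b-5p they were hsa-miR-21-5p (0.23), hsa-miR-484 (0.24) and RNU2-9P (0.25), against a median of 0.67. The members were not each other's closest: the SD was 0.36 between hsa-miR-106b-5p and hsa-miR-93-5p, 0.43 between hsa-miR-106b-5p and hsa-miR-25-3p and 0.22 between hsa-miR-93-5p and hsa-miR-25-3p. Set among the 913 features, hsa-miR-93-5p would rank 24 and hsa-miR-25-3p 56 for hsa-miR-106b-5p, and hsa-miR-25-3p 20 for hsa-miR-93-5p. These values share the same libraries and scaling, and features with fewer counts have a larger SD from counting error, so they are a description with no test.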

How the data were processed

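For 8 OTTR-seq libraries, grouped by their labels, the authors deposited raw counts of reads for each small RNA. The submitters' processing notes name hg38, with aligner and counter not given in the sources used here, nor the annotation. A further table deposited by the authors gives a normalized signal, the counts divided by the authors' factors per library, used only as an alternative. The rows scr and scr2 name no gene and stayed out; they took 0.000749 to 0.00389% of counts in tDR libraries and 0.353 to 0.565% in scramble libraries.

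Of 2962 features 1761 passed filterByExpr and were tested with edgeR 4.0.16 (R 4.3.3): TMM factors, robust quasi-likelihood fit over 8 libraries without covariates, Benjamini-Hochberg adjusted p below 0.05. SE is the size of the log2 fold change over the square root of F; the biological coefficient of variation was 19.0%. Ratios within libraries had a pseudocount of 0.5 and a two-sided exact permutation test (70 arrangements), adjusted over 11 comparisons. Fit and permutation test were tested on simulated data. Replicate pairs had a chi-square per degree of freedom of at least 15.6, so none was a copy. That lowest value was between tDR libraries 3 and 4, while other tDR pairs had 83.9 to 138 and scramble pairs 15.8 to 74.4. Named features were the members, opposite arms, seed relatives, paralogous guides and, for each member, the 3 features with the steadiest ratio. Members and lists were chosen with earlier results of these data known. Alternatives used DESeq2 1.42.0, limma 3.58.1, other scalings and filters, a replicate block and left-out libraries. Python 3.11.15, scipy 1.17.1 and matplotlib 3.10.9 made tables and figures.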

Additional observations from a re-analysis of the deposited data

How the results depend on the processing

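Of the 3 members 0 were called in the main analysis and in all 18 alternatives. Their log2 fold changes ran over these from -0.77 to 0.012 for hsa-miR-106b-5p, -0.57 to -0.0043 for hsa-miR-93-5p and -0.45 to 0.036 for hsa-miR-25-3p. Same-numbered libraries of the groups did not deviate together (r from -0.34 to -0.12), so the numbers do not pair them. A replicate block gave -0.56, -0.38 and -0.31 for the members in the same order, and called 39 of all features in place of 118. DESeq2 called 194 of all features, limma on the deposited normalized signal 188, and fits without 1 library 65 (scramble library 2) to 164 (tDR library 1), with 70 without scramble library 3.

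Signs turned in these cases, and the cause was not tested. With TMM factors from microRNAs alone the log2 fold change was 0.036 for hsa-miR-25-3p, 0.093 for hsa-miR-106b-3p, 0.11 for hsa-miR-93-3p, 0.024 for hsa-miR-20a-5p, 0.25 for hsa-miR-32-5p and 0.017 for hsa-miR-19b-3p. Without tDR libraries 3 and 4 together it was 0.012 for hsa-miR-106b-5p, 0.023 for hsa-miR-106b-3p, 0.024 for hsa-miR-17-5p, 0.012 for hsa-miR-32-5p and 0.033 for hsa-miR-19b-3p. Those libraries were the lowest for each member, so leaving them out raises the members' log2 fold changes by choice. In that setting the shares of the cluster differed by 1.07, 0.492 and -1.56 percentage points for hsa-miR-106b-5p, hsa-miR-93-5p and hsa-miR-25-3p. The log2 ratios there differed by 0.047 (hsa-miR-106b-5p to hsa-miR-93-5p), 0.15 (hsa-miR-106b-5p to hsa-miR-25-3p), 0.11 (hsa-miR-93-5p to hsa-miR-25-3p), 0.033 (hsa-miR-106b-5p to its relatives), 0.0016 (hsa-miR-106b-5p to its opposite arm) and 0.17 (hsa-miR-93-5p to its opposite arm). With 1 library left out at a time, the share of hsa-miR-93-5p ran from -1.16 to 0.203 points, its log2 ratio to hsa-miR-25-3p from -0.20 to 0.0073, to its relatives from -0.12 to 0.048 and to its opposite arm from -0.29 to 0.097, and the log2 fold change of hsa-miR-32-5p from -0.30 to 0.14. The log2 ratio of hsa-miR-25-3p to its relatives stayed above 0 in its 13 alternatives, from 0.34 to 0.60, with adjusted p from 0.314 to 1. With a library left out the smallest p is 0.0571 and with sign flips of same-numbered differences 0.125, so those tests could not pass. hsa-miR-92a-3p also lost its call with the replicate block (log2 fold change -0.82, adjusted p = 0.118); hsa-miR-92b-3p was called in 4 alternatives and hsa-miR-18a-5p in 9.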
